A study of Sus scrofa with 4 samples.

Results

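In the first of 2 pig pancreas libraries, most duct cells held at least 5 RNA molecules in total of EREG, OSGIN1, RND1, DUSP10 and GDNF. These cells also held more RNA of immediate early genes and of the few measurable NF-kB and cytokine genes than the remaining duct cells. Duct genes were at nearly the same level. In the second library the same rule found fewer cells, and these carried mainly EREG. The cells described here were chosen by measured values. Barcodes of the primary pancreas libraries with at least 2000 unique molecular identifiers (UMIs, counted RNA molecules) and at most 9000 detected features were kept. A duct cell was a barcode with at least 0.5% of its UMIs from SLC4A4, the sodium bicarbonate cotransporter of pancreatic ducts, under 5% from INS and 0 UMIs of LGR5. A member was a duct cell with at least 5 UMIs in total of EREG, OSGIN1, RND1, DUSP10 and GDNF, called program genes below. This gave 1706 members among 3318 duct cells and 14656 barcodes of primary pancreas, out of 32580 barcodes in all 4 libraries.

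The data are 10x Chromium 3' single-cell libraries of 2 groups with 2 libraries each, primary porcine pancreas and porcine pancreatic ductal organoids (PPDO), which are epithelial cultures grown from pig pancreatic ducts. Per the study's methods, the primary pancreas libraries came from 2 pigs of the same postnatal age, 1 wild type and 1 carrying an INS-eGFP transgene, processed on different days with collagenase V and TrypLE and sorted for live cells. One preparation held hand-isolated ductal fragments of the first pig. The other pooled lectin-stained (Dolichos biflorus agglutinin) ductal cells, INS-eGFP cells and whole suspension of the second pig. The numbering of the labels was taken to follow this order, an assumption under which pig, genotype, preparation and day all change between primary pancreas 1 and 2, so their parts cannot be told apart. The eGFP feature had 0 UMIs in all barcodes of both primary libraries, so it does not check this order. Cells with at least 5% of UMIs from INS numbered 56 in primary pancreas 1 and 3391 in primary pancreas 2, the direction the assumed order gives, since INS-eGFP cells were added to the second preparation. PPDO 1 and 2 came from lines of different donor age and passage that the labels do not assign. The 4 libraries held 6999 to 9853 barcodes each, and the median barcode had 7402 to 8592 UMIs in primary pancreas and 35127 to 35310 UMIs in PPDO.

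Pancreatic duct cells line the tubes that carry digestive enzymes and secrete a bicarbonate-rich fluid through SLC4A4 and the chloride channel CFTR. The program genes belong to different pathways. EREG (epiregulin) is a secreted ligand of the EGFR and ERBB4 receptors, and GDNF is a secreted neurotrophic factor that signals through GFRA1 and RET. DUSP10 is a phosphatase that switches off the stress kinases p38 and JNK, RND1 is a small GTP-binding protein that loosens actin fibres and cell contacts, and OSGIN1 is an oxidative stress response gene. Immediate early genes, such as FOS and EGR1, are switched on within minutes of a stimulus without new protein synthesis.

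On the pig assembly Sscrofa11.1, RefSeq places EREG at chr8:70351316-70372530, OSGIN1 at chr6:4642762-4656113 and RND1 at chr5:14914652-14922032. DUSP10 lies at chr10:10866446-10905852 and GDNF at chr16:22936602-22965929. The 5 genes thus sit on 5 different chromosomes. The files also count reads in extensions of 3' gene ends, which held 30.5% of the RND1 UMIs of members in primary pancreas 1 and between 0.0900% and 9.82% of the UMIs of the other program genes. In PPDO 1 and 2 they held 59.8% and 62.3% of the RND1 UMIs, and 76.9% and 95.9% of the few GDNF UMIs (26 and 49 in all).

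Primary pancreas 1 held 1399 members among 2139 duct cells, a share of 65.4% (95% Clopper-Pearson interval 63.3 to 67.4, counting error only). Primary pancreas 2 held 307 among 1179, or 26.0% (23.6 to 28.6). PPDO 1 and 2 held no duct cell by this rule, since SLC4A4 reached at most 0.315% and 0.354% of a cell's UMIs there. The members were deep cells, with a median of 22100 UMIs against 11937 in the other duct cells of primary pancreas 1, and 24641 against 19045 in primary pancreas 2. A rule on a number of UMIs picks deep cells, so depth and membership move together. Between 20000 and 30000 UMIs, 419 of 493 duct cells of primary pancreas 1 were members (85.0%, 81.5 to 88.0) and 161 of 493 in primary pancreas 2 (32.7%, 28.5 to 37.0).

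The libraries also differed after thinning to equal depth. Each duct cell was thinned to 5000 UMIs, which left out 167 shallower cells of primary pancreas 1 and 47 of primary pancreas 2. At least 5 program UMIs then remained in 796 of 1972 duct cells of primary pancreas 1 (40.4%, 38.2 to 42.6) and in 6 of 1132 of primary pancreas 2 (0.530%, 0.195 to 1.15). Among 5000 UMIs, 5 are a larger share than in a deeper cell, so thinning also made the limit stricter. Cells with 0 program UMIs made up 17.8% and 49.6%. The thinned counts of primary pancreas 1 fell off gradually from 0 upwards, with 25.6% of cells at 5 to 9 and 14.8% at 10 or more.

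**Figure D1:**
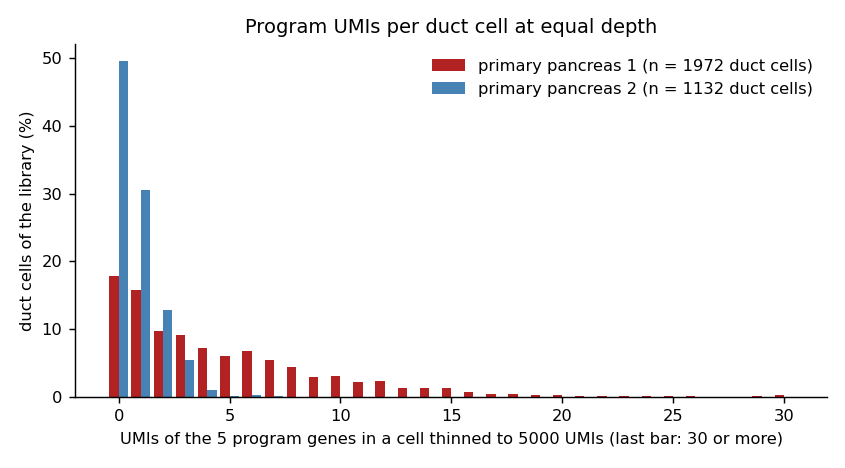
Share of the duct cells of each primary pancreas library (y axis, %) by the number of program UMIs per cell after thinning to 5000 UMIs (x axis, the last bar pools 30 or more). Primary pancreas 1 (1972 cells) has a long tail with 40.4% of cells at 5 or more, while primary pancreas 2 (1132 cells) has 0.530% there.

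Just under the limit, 77 duct cells of primary pancreas 1 had 4 program UMIs and 65 had 5. CLDN4 stood at 200.1 and 252 UMIs per 1000000 UMIs (CPM) in these cells, and TM4SF4 at 366 and 454 CPM. Primary pancreas 2 had 140 duct cells with 4 program UMIs and 98 with 5, with CLDN4 at 199 and 187 CPM.

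The make-up of the program differed between the libraries. In primary pancreas 1 EREG gave 32.1% of the members' program UMIs, OSGIN1 27.5%, RND1 18.0%, DUSP10 16.1% and GDNF 6.34%. A member had a median of 25 program UMIs and at most 201, and all 5 genes were detected in 450 members (32.2%). EREG gave 70.2% of the program UMIs in primary pancreas 2, where a member had a median of 7 and at most 21, and all 5 genes were detected in 2 members (0.651%). The name of an EREG and OSGIN1 program thus described the members of primary pancreas 1, and not those of primary pancreas 2. EREG was not particular to the members of primary pancreas 2. It was detected in 97.4% of them, but also in 64.8% of the other duct cells of that library. Among thinned cells these shares were 59.3% and 28.5%. The rule counts EREG, so a higher share in members follows from it in part. Of the members of primary pancreas 2, 255 had more EREG UMIs than UMIs of any other program gene, 9 had most of OSGIN1, and 18 had a tie for the most.

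These levels chose the members and are given as a description. EREG stood at 405 CPM in members and 58.3 CPM in other duct cells of primary pancreas 1, and at 197 and 62.8 CPM in primary pancreas 2. OSGIN1 stood at 347 and 24.0 CPM in primary pancreas 1, and at 16.8 and 5.76 CPM in primary pancreas 2. RND1 stood at 227 and 14.0 CPM in the first library, and at 11.8 and 8.61 CPM in the second. The members of primary pancreas 2 therefore held less OSGIN1 and RND1 RNA, in CPM, than the other duct cells of primary pancreas 1 did. DUSP10 stood at 203 and 20.2 CPM in primary pancreas 1, and at 25.6 and 9.50 CPM in primary pancreas 2. GDNF stood at 80.0 and 14.8 CPM in primary pancreas 1, and at 29.2 and 13.5 CPM in primary pancreas 2. For all 5 genes the members of primary pancreas 1 were the highest of these 4 sums.

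**Figure D2:**
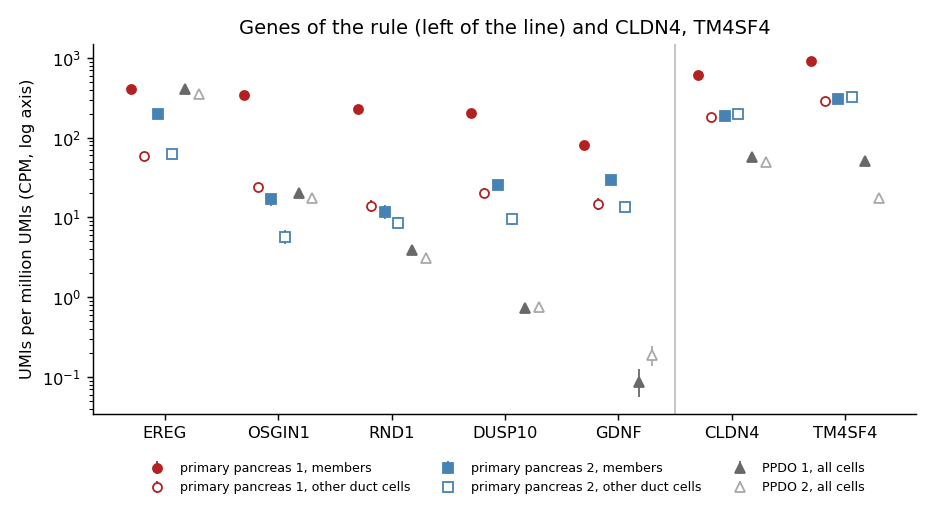
CPM (y axis, log scale) of the 5 genes of the rule and of CLDN4 and TM4SF4, in members (filled) and other duct cells (open) of each primary pancreas library and in all cells of each PPDO library; bars are exact 95% Poisson intervals. Among the sums plotted, members of primary pancreas 1 are the highest for OSGIN1, RND1 and DUSP10, at 347, 227 and 203 CPM, while EREG is at 406 and 356 CPM in PPDO 1 and 2.

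In the primary pancreas libraries few cells outside ducts reached 5 program UMIs. They were 59 cells of primary pancreas 1 and 19 of primary pancreas 2, beside 16 and 9 duct cells with LGR5. In PPDO 5 program UMIs were common, in 5152 cells of PPDO 1 (57.3%) and 4477 of PPDO 2 (60.04%). After thinning to 5000 UMIs the organoid shares were 13.3% and 11.8%, between the 40.4% and 0.530% of the duct cells of primary pancreas 1 and 2. Most program UMIs of PPDO were EREG. Over all cells of PPDO 1 and 2 EREG had 122259 and 93588 UMIs, and OSGIN1, the next program gene, had 6156 and 4546. Cells with at least 10 UMIs of acinar, endothelial, stellate and fibroblast, immune or schwann markers and under 0.1% SLC4A4 served as a measure of free RNA. In primary pancreas 1 the share of such cells with 5 program UMIs ran from 0.487% to 1.56%, at median depths of 6977 to 9414 UMIs. INS-rich cells of primary pancreas 2 were as deep as members (27505 UMIs) and reached it in 15 of 3391 cells (0.442%). Those of primary pancreas 1, also deep (25337 UMIs), reached it in 2 of 56 cells (3.57%, 0.435 to 12.3). Single genes were less restricted. DUSP10 stood at 40.8 CPM in 56 INS-rich cells and 31.1 CPM in immune-marker cells of primary pancreas 1, and RND1 at 25.6 CPM in its endothelial-marker cells. EREG was at 14.4 CPM or less in every one of these classes of both libraries. Rare duct cells with LGR5, which the rule leaves out, carried EREG at 389 CPM and OSGIN1 at 213 CPM in primary pancreas 1 (19 cells), and at 128 and 15.8 CPM in primary pancreas 2 (21 cells). Those of primary pancreas 1 stood near the members of that library for CLDN4 (554 CPM) and TM4SF4 (855 CPM), and below them for DUSP10 (89.0 CPM) and GDNF (34.6 CPM). RND1 was at 356 CPM in them, but 1 of the 19 cells held 102 of its 216 UMIs.

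CLDN4, a tight junction claudin, and TM4SF4, a membrane protein of the tetraspanin-like family, were named with the program but not used by the rule. In primary pancreas 1 CLDN4 stood at 615 CPM in members (95% Poisson interval of the ratio 3.23 to 3.58 times) and 181 CPM in other duct cells. TM4SF4 stood at 909.9 CPM in members and 292 CPM in other duct cells there (2.99 to 3.24 times). Members of primary pancreas 2 had slightly less of both, 186 against 199 CPM for CLDN4 and 304 against 323 CPM for TM4SF4. Both genes therefore separated members from other duct cells in 1 of 2 libraries. These intervals cover counting error only, and no test was made, since the cells were chosen by their values and each library is a single sample.

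In primary pancreas 1 the levels of CLDN4 and TM4SF4 rose from bin to bin of program UMIs. From duct cells with 0 program UMIs (212 cells) to those with 40 or more (392 cells), CLDN4 went from 166 to 795 CPM and TM4SF4 from 209 to 1093 CPM, each higher in every next bin. Depth rose along the same bins, from a median of 6941 to 32869 UMIs. Sums per bin cannot tell a graded level from different kinds of cells mixed in changing shares. Over the cells thinned to 5000 UMIs, program UMIs and CLDN4 plus TM4SF4 UMIs had a Spearman correlation of 0.52 in primary pancreas 1 (1972 cells) and -0.02 in primary pancreas 2 (1132 cells). This is a description across cells of 1 library, which share its free RNA and, after thinning, its depth. Among duct genes, SCTR, the secretin receptor, went from 751 to 449 CPM. SOX9 began at 275 and ended at 297 CPM.

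**Figure D3:**
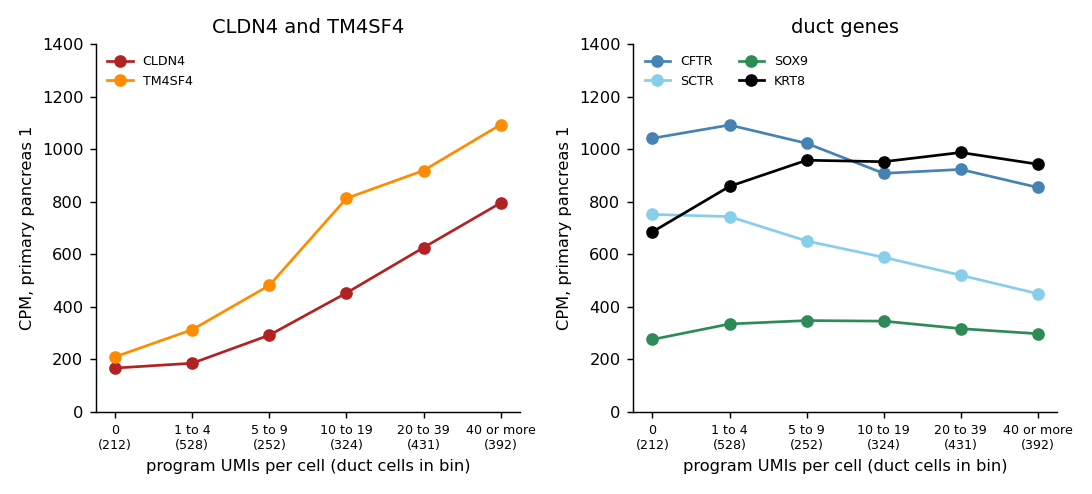
CPM (y axis) of CLDN4 and TM4SF4 (left) and of duct genes (right) in duct cells of primary pancreas 1 grouped by program UMIs per cell (x axis, cells per bin in brackets). CLDN4 and TM4SF4 climb in each bin, to 795 and 1093 CPM, SCTR ends below where it began, and SOX9 stays between 275 and 347 CPM.

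Over all genes with at least 10 CPM in either sum, leaving out the genes of the rule (the 5 program genes, SLC4A4, INS and LGR5), the members of primary pancreas 1 differed from the other duct cells mostly by higher genes. A ratio here is log2 of the members' CPM plus 5 over the others' CPM plus 5, and the fold limit is 2 times. Past it, 336 of 9484 genes were higher in members (3.54%) and 22 lower (0.232%). Of the 336, 79 were under 10 CPM in other duct cells and were measured only because members were high, and 257 of the 9155 genes at 10 CPM or more in other duct cells were higher past the limit. Primary pancreas 2 had only 2 of 9578 genes higher (0.0209%) and 1 lower (0.0104%). These 3, seen after the fact, were the adhesion gene CDH6 and the acinar enzyme gene CPA1 (138 against 63.1 CPM), and the glucagon gene GCG (25.8 against 519 CPM). Each passed the limit through 1 cell. A single member held 572 of the 1097 CPA1 UMIs of members and another 29 of the 98 CDH6 UMIs, and 1 other duct cell held 8183 of 8736 GCG UMIs. Without that cell, an alternative chosen after seeing the data, the log2 ratio was 0.07 for CPA1, 0.80 for CDH6 and -0.30 for GCG, all within the limit. Of the 231 genes higher past the limit in primary pancreas 1 and measured in both libraries, 0 passed it in primary pancreas 2. Their median log2 ratio was 1.40 in the first library and 0.08 in the second, where 178 of them (77.1%) lay above 0, against 50.7% of all genes measured in both. The median over all genes was -0.02 and 0.00.

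The 15 largest ratios among genes at 50 CPM or more outside the rule included FOS, FOSB, ATF3, ZFP36, MAFF and IER3, which belong to the early response and feedback lists. CXCL2, a neutrophil-attracting chemokine, stood at 1029.7 CPM in members and 84.7 CPM in other duct cells of primary pancreas 1 (12.2 times, 11.3 to 13.1), and at 36.1 and 29.9 CPM in primary pancreas 2. CREB5, a transcription factor that binds cAMP response elements, stood at 312 and 23.0 CPM in primary pancreas 1, and at 14.9 and 13.6 CPM in primary pancreas 2. Others of the 15 largest were the interferon response factor IRF1 (187 against 18.6 CPM), the clock repressor CRY1 (350.2 against 40.03 CPM) and CRTAC1 (71.9 against 4.73 CPM). PLEKHG2, TRIB1, OTUD1 and IFRD1 had log2 ratios of 2.78, 2.75, 2.67 and 2.65. The ratios of all 15 lay between -0.19 and 0.48 in primary pancreas 2.

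Of the 20 matched genes of the immediate early and AP-1 list, which holds the transcription factors that make up AP-1 and their early partners, 17 were measured and all 17 were past the limit in members of primary pancreas 1, with a median log2 ratio of 2.27. Of these, 4 were measured only through the members and 13 were at 10 CPM or more in other duct cells too. FOS stood at 2474 CPM in members and 324 CPM in other duct cells, and FOSB at 1482 and 174 CPM. ATF3, a stress-induced repressor, stood at 1612 and 225 CPM, EGR1 at 1209 and 193 CPM, and ZFP36, which destabilises cytokine messages, at 658 and 79.7 CPM. Summed over the list, 0.924% of the members' UMIs came from these genes and 0.135% of those of other duct cells. The sums in primary pancreas 2 were 0.0952% and 0.0806%, and 0 of 10 measured genes were past the limit. Among thinned cells, program UMIs and UMIs of this list had a Spearman correlation of 0.73 in primary pancreas 1 and -0.03 in primary pancreas 2.

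Immediate early RNA was higher in primary pancreas 1 outside ducts too. The list took 0.598% of UMIs in its endothelial-marker cells against 0.138% in primary pancreas 2, and 0.966% against 0.0911% in stellate and fibroblast-marker cells. Immune-marker cells stood at 0.799% and 0.294%, and INS-rich cells at 0.241% and 0.0132%. The other duct cells of primary pancreas 1, at 0.135%, were the lowest class of their library, and the members were close to its stromal cells. Only the duct cells were split by program UMIs, which went with this list across cells (Spearman 0.73 after thinning). The place of each duct group among the undivided classes thus follows in part from the split. The parts of pig, preparation and processing day in this difference between the libraries cannot be told apart.

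**Figure D4:**
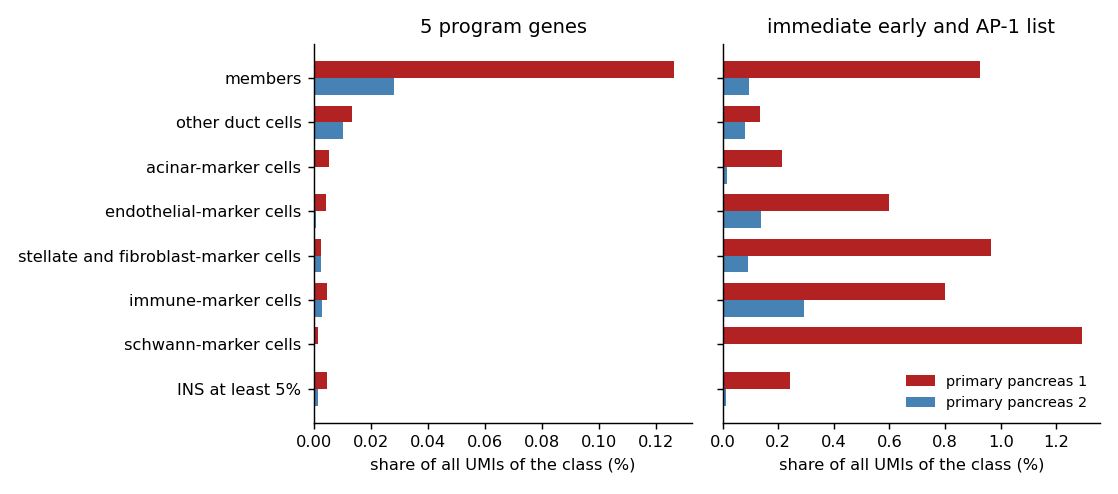
Share of all UMIs (x axis, %) taken by the 5 program genes (left) and by the immediate early and AP-1 list (right) in members, other duct cells and cells chosen by markers of other types, for both primary pancreas libraries; primary pancreas 2 had fewer than 10 schwann-marker cells and no bar. The program is high in members of primary pancreas 1 (0.126%), and the early genes are also high in its endothelial, stellate and fibroblast, immune and schwann-marker cells.

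The list of cytokines and of genes of the NF-kB pathway, which drives inflammatory transcription, had 17 matched genes. Only 6 were measured in primary pancreas 1, and these behaved like the early genes. All 6 were past the limit in members (median log2 ratio 2.04). The rest were under 10 CPM in both sums and could not be compared. The inhibitor NFKBIA stood at 474 against 115 CPM, the adhesion molecule ICAM1 at 229 against 34.5 CPM and TNFAIP3, a brake on the pathway, at 111 against 25.0 CPM. None of 4 was past it in primary pancreas 2, where NFKBIA stood at 75.5 against 84.9 CPM.

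In the ERBB list, which holds EGFR family ligands and receptors, 7 of 11 matched genes outside the rule were at 10 CPM or more in other duct cells of primary pancreas 1, and 1 of the 7 was past the limit. This was the ligand TGFA, at 182 against 78.8 CPM. The ligands HBEGF (48.7 against 9.24 CPM) and AREG (12.1 against 2.09 CPM) were measured only through the members. The ligand NRG1 stood at 77.6 against 75.1 CPM. The receptors EGFR (191 against 209.6 CPM), ERBB2 (51.4 against 65.9 CPM), ERBB3 (871 against 645 CPM) and ERBB4 (1052 against 879 CPM) stayed within the limit. The second library had TGFA at 62.9 against 59.5 CPM and HBEGF at 1.76 against 1.84 CPM. The GDNF receptors RET and GFRA1 were nearly undetected in duct cells, at 0.170 and 1.11 CPM in members of primary pancreas 1.

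Feedback genes of MAPK signalling were past the limit in 4 of 12 measured in primary pancreas 1, or in 3 of the 9 at 10 CPM or more in other duct cells. The 4 were the phosphatases DUSP1 (778 against 135 CPM) and DUSP5 (95.3 against 11.9 CPM), IER3 (204 against 18.8 CPM) and the ephrin receptor EPHA2 (57.4 against 9.79 CPM). The ERK phosphatase DUSP6 (21.7 against 14.3 CPM), DUSP4 (23.9 against 21.7 CPM) and the ERK inhibitors SPRY1 (41.7 against 41.1 CPM) and SPRED1 (52.8 against 60.4 CPM) were within it.

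OSGIN1 is also known as a target of NRF2, the oxidative stress factor. Of 8 other NRF2 targets measured, 2 of them only through the members, the log2 ratios lay between 0.05 and 1.54, and only TXNRD1, a thioredoxin reductase, was past the limit (117 against 37.1 CPM). NQO1 stood at 33.6 against 31.6 CPM and GCLM at 50.2 against 43.5 CPM in primary pancreas 1. In the integrated stress response list 3 of 7 measured were past it (2 of the 5 at 10 CPM or more in other duct cells), namely TRIB3, PPP1R15A and CEBPB, with log2 ratios of 1.69, 2.11 and 1.77. Of 9 heat shock genes 1 was past it, HSPH1 (107 against 37.6 CPM), while HSP90AA1 stood at 829 against 891 CPM.

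Genes of cell shape and contact were partly higher. In the list of actin regulators 3 of 11 measured genes outside the rule were past the limit in primary pancreas 1, the RND1 relative RND3 (168 against 52.6 CPM), RHOB (324 against 113 CPM) and vinculin, VCL (839 against 238 CPM). In the list of Hippo pathway targets 3 of 6 were past it, with CCN1 at 241 against 45.9 CPM, CCN2 at 237 against 52.3 CPM and ANKRD1 at 19.6 against 3.52 CPM, the last measured only through the members. The other measured genes of the tight junction list stayed within it, with CLDN3 at 251 against 176 CPM and CLDN10 at 989 against 1012 CPM. The list also holds the cadherin CDH1, not itself a tight junction gene, which was near the limit at 1007 against 522 CPM. Of 13 injury genes 4 were past the limit, among them the laminin chain LAMA3 (89.5 against 16.7 CPM) and the urokinase receptor PLAUR (116 against 32.8 CPM). Among hypoxia genes 1 of 5 was past it, ANKRD37, and of the 2 proliferation genes at 10 CPM or more in other duct cells 0 were.

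Duct genes were nearly level between members and other duct cells. In primary pancreas 1, 0 of 10 apical and structural duct genes and 0 of 5 bicarbonate secretion genes were past the limit, with median log2 ratios of 0.04 and -0.02. The ciliary protein gene PKHD1 stood at 2386 against 2274 CPM, KRT8 at 959 against 824 CPM, CFTR at 906 against 1082 CPM and SCTR at 522 against 744 CPM. Among 8 duct transcription factors only HES1, a NOTCH target, was past it (369 against 131 CPM). SOX9 stood at 318 against 322 CPM and ONECUT1 at 489.7 against 606 CPM. The second library had HES1 at 74.5 against 86.9 CPM.

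**Figure D5:**
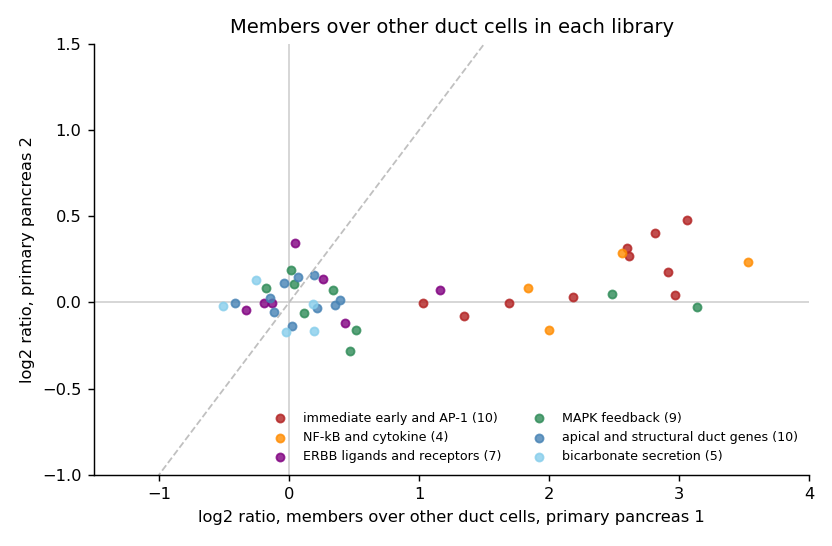
Log2 ratio of members over other duct cells in primary pancreas 1 (x axis) and primary pancreas 2 (y axis, shorter scale; the dashed line marks equal ratios) for genes of 6 lists measured in both libraries, without the genes of the rule. The early and NF-kB genes reach 3.53 on the x axis and stay between -0.16 and 0.48 on the y axis, and duct genes cluster near 0 on both.

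Few genes were lower in members, matrix genes among them. MGP, a matrix protein gene of stroma, stood at 39.3 CPM in members and 149 CPM in other duct cells of primary pancreas 1, and DCN at 10.4 against 43.9 CPM. In the stellate and fibroblast list 3 of 6 measured genes were lower past the limit, DCN, LUM and COL1A2. The list summed to 0.00667% of the members' UMIs and 0.0152% of those of other duct cells there, and to 0.000288% and 0.000333% in primary pancreas 2. Against duct cells with 0 program UMIs the MGP ratio turned to 1.21 and the median log2 ratio of the list from -0.90 to 0.88, so the direction depends on which duct cells they are set against. Few cells of primary pancreas 1 carried RNA of the list. At least 5 of its UMIs were found in 18 of 1399 members and 9 of 740 other duct cells, and the median cell of either group had 0%. The part of these few cells in the lower ratios was not tested. Without barcodes carrying markers of another cell type the MGP ratio was -0.10. This step drops barcodes by their UMIs of the same list. Its genes were then under 10 CPM in both sums, which follows from the step, and could not be compared. The receptor kinase gene ROS1 (166 against 276 CPM) was among the 10 smallest ratios but within the limit.

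Acinar RNA was present at a low level throughout. At least 5 UMIs of the acinar list were found in 1048 of 1399 members of primary pancreas 1 and in 266 of its 740 other duct cells. Members were deeper (median 22100 against 11937 UMIs), so a limit in UMIs favours them for any list. The acinar list summed to 0.0522% of the UMIs of members and 0.0360% of those of other duct cells. The median cell had 0.0308% and 0.0305%. A single member held 1074 of the 3478 CPA1 UMIs of members. RBPJL, an acinar transcription factor, stood at 91.4 against 51.1 CPM. Of 8 acinar genes measured in primary pancreas 1, all 8 had log2 ratios above 0 (median 0.41) and 1 was past the limit. Endothelial RNA was seen too, with at least 5 UMIs of the endothelial list in 227 members and 32 other duct cells of primary pancreas 1. PECAM1 stood at 92.1 CPM in these members and 58.5 CPM in other duct cells, while the list summed to 0.0139% and 0.0144% of their UMIs. Of 4 endothelial genes measured there, PECAM1 alone had a log2 ratio above 0, at 0.61, and the median was -0.47. The part of this RNA in the results was not tested. The schwann marker CDH19 stood at 1.98 CPM, the immune marker PTPRC at 6.55 CPM and the stellate marker COL1A1 at 11.06 CPM in members of primary pancreas 1. Doublets were not removed by a caller. Without the 1095 members and 300 other duct cells of primary pancreas 1 that had 5 or more UMIs of any other cell type's list, 304 members remained, with 250 genes higher past the limit and 14 lower. The median log2 ratio of the early list was then 2.19.

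PPDO were compared with the duct cells of both primary libraries, members and other duct cells together. The program genes were thus not used to choose the cells of either side. These genes, CLDN4 and TM4SF4 were, however, picked with earlier results of these libraries known. Their adjusted p-values are therefore a description and not independent support. Of 23605 genes tested with edgeR's quasi-likelihood test, 22.2% were higher in PPDO and 20.5% lower at an adjusted p under 0.05. EREG stood at 406 and 356 CPM in PPDO and at 334 and 106 CPM in duct cells of primary pancreas 1 and 2. OSGIN1 stood at 20.4 and 17.3 CPM in PPDO and at 281 and 9.31 CPM in primary duct cells. GDNF stood at 0.0862 and 0.186 CPM in PPDO and at 66.7 and 18.5 CPM in primary duct cells.

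Among the 5 program genes 2 fell in PPDO against primary duct cells and 0 rose. The log2 fold change was -7.87 ± 1.03 for GDNF (SE; edgeR, adjusted p = 0.00591) and -6.56 ± 1.42 for DUSP10 (adjusted p = 0.0228). RND1 had -4.43 ± 1.48 (adjusted p = 0.0709), OSGIN1 -2.58 ± 1.51 (adjusted p = 0.227) and EREG 1.20 ± 0.62 (adjusted p = 0.183), so that none of these passed, although RND1 did with DESeq2 (adjusted p = 0.0173). Without the 3' extensions, an alternative chosen after seeing the data, RND1 had -5.27 (edgeR adjusted p = 0.0460) and GDNF -10.97 (adjusted p = 0.00320). CLDN4 (-2.33 ± 0.58, adjusted p = 0.0324) and TM4SF4 (-3.60 ± 0.77, adjusted p = 0.0220) fell. Each primary library had its own OSGIN1 level, and without primary pancreas 1 the log2 fold change was 1.56, the opposite direction. Without primary pancreas 2 it was -3.55. EREG had 2.39 without primary pancreas 1 and 0.53 without primary pancreas 2, and RND1 had -0.92 and -5.38. A fit with 1 library left in a group takes its spread from the other group alone, so a pass in it is weak. Without PPDO 1 or PPDO 2, DUSP10 and CLDN4 no longer passed, nor did TM4SF4 without PPDO 2. GDNF fell in each of these fits. With 2 libraries per group, these p-values set the group difference against the spread between libraries of a group, which edgeR moderates over genes. They hold for these 4 libraries. The PPDO lines differ in donor age and passage, and the 2 pigs in genotype, preparation and day.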

How the data were processed

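Single-cell counts of 2 primary porcine pancreas and 2 PPDO samples were analysed, grouped by their titles. The authors aligned reads with Cell Ranger to an in-house pig annotation, and their processing notes name Sscrofa11.1 and GRCh38. What was deposited are uncorrected UMI counts for each feature and barcode, from before the SoupX correction of free RNA that the study then made. Barcode and feature names come in tables of their own. Features of a gene, 3' extensions included, were summed to 30282 genes.

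The members and gene lists were chosen with earlier results of these data known. Sums over cells were scaled to 1000000 UMIs (CPM), 5 CPM was added before log2, and genes under 10 CPM in both sums were left out. Cells of 1 library are not replicates, so members and other duct cells were compared without a test. Intervals are exact at 95% and cover counting error only. Thinning drew 5000 UMIs per cell without replacement. List genes were matched by symbols used once, and 17 had no match (among them JUN, EPGN and PHLDA1). Named genes were the program genes, CLDN4 and TM4SF4, list members, and the 15 largest and 10 smallest ratios of primary pancreas 1 among genes outside the rule at 50 CPM or more. Few barcodes were shared between libraries (1, 4 and 2 members of primary pancreas 1 with the other 3).

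PPDO were tested against duct cells with edgeR 4.0.16 (TMM, filterByExpr, group as the only term, Benjamini-Hochberg) on library sums, SE being the absolute fold change over the root of F. SLC4A4, INS and LGR5 set the gate and are not reported from it. DESeq2 1.42.0, other filters, thresholds, scalings and left-out libraries were alternatives. The ratio and the edgeR fit were tested on simulated data. Labels do not say that libraries pair by number.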

Additional observations from a re-analysis of the deposited data

How the results depend on the processing

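The total of 1706 members became 802 after thinning to 5000 UMIs, 419 without barcodes with markers of another cell type, and 307 to 1399 when either primary library was left out. In primary pancreas 1 the 1399 members became 796 and 304 under the first 2 of these. In primary pancreas 2 the 307 members became 627 with at least 3 UMIs, 51 with at least 10, 6 after thinning, 28 with program genes at 0.05% of UMIs, and 115 without markers of another cell type. The 358 genes past the fold limit in primary pancreas 1 became 202 with 20 CPM added, and the share of them that was higher ran from 86.4% to 99.0% over all settings. The 3 genes of primary pancreas 2 became 13 against duct cells with 0 program UMIs, 6 with 1 CPM added, 1 with 20 CPM added, 21 without markers of another cell type and 48 for the 51 members with at least 10 UMIs. The small sums behind the last 2 limit what those counts show, and the cause was not tested. Without the duct cell with the most UMIs of each gene, 0 of the 3 genes of primary pancreas 2 stayed past the limit. Among 27 named ratios of primary pancreas 1, only that of MGP changed sign, to 1.21.

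The 10065 genes called between PPDO and primary duct cells became 3878 to 11027 when 1 library was left out, 10951 with DESeq2, 9355 without the 3' extensions and 9902 without the filter on low counts. A lone library in an arm was assumed to vary like the other group. OSGIN1 had a log2 fold change of 0.83 without the members, a sign change that follows from the rule, since members were chosen by OSGIN1 among others, and, over the fits that left out 1 library, ran from -3.55 without primary pancreas 2 to 1.56 without primary pancreas 1. With the replicate number as a block 7874 genes were called, and no call on the 7 genes above changed. Samples with the same number did not deviate together (correlation of deviations -0.02 over 23605 genes). With 2 libraries per group this cannot tell whether they share more than a number.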
